A study of Homo sapiens with 11 samples.

Results

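Chemokines, interleukins and a few related secreted factors were examined in ARPE-19 cells, an established line derived from the human retinal pigment epithelium (RPE). The genes were taken by symbol: the numbered CXCL and CCL chemokines, CX3CL1, the numbered interleukins, and LIF, CSF1, CSF2, CSF3 and TNF. The rule found 82 genes among 60605 features. Of these, 39 are chemokines.

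Polyadenylated RNA was sequenced from stable lines that had expressed an open reading frame for 4 days. The control line expressed GFP, a fluorescent protein (n = 3 libraries). The other lines expressed Oct4, Sox2, Klf4, or Oct4, Sox2 and Klf4 together (OSK), with n = 2 libraries each. The library names of the 4 factor lines carry the tag mC, which those of the control do not, and its meaning is not given in the sources used here. These 3 transcription factors are used to reprogram somatic cells towards pluripotency. The species of the reading frames, the promoter that drove them, and whether each line was a single clone are not given in the sources used here, nor whether replicates were separate cultures. P-values therefore measure the spread between these libraries, which may be technical.

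Chemokines are small secreted proteins that draw leukocytes along a gradient through G protein-coupled receptors. Interleukins act on neighbouring cells through receptors that signal mainly by JAK and STAT proteins or, in the IL-1 and IL-17 families, by MyD88 or Act1 to NF-kB. The RPE lies between the photoreceptors and the choroidal blood supply, and it secretes such factors in ocular inflammation.

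Values are normalised read counts, the authors' gene counts divided by 1 factor per library. Library totals ran from 15053300 to 19791775 reads, so 3 reads, the limit that a count of 0 allows, were 0.152 to 0.199 CPM. POU5F1, the gene of Oct4, was at 19020 or more in the lines that carried it and at most 446 elsewhere. SOX2 was at 17580 or more against at most 197, and KLF4 at 22140 or more against at most 249. GFP replicate 1 and OSK replicate 1 stood apart by reads on many otherwise silent genes. Of 405 olfactory receptor genes, a read was seen for 67.7% in GFP replicate 1 and for 23% in OSK replicate 1, whereas the other 9 libraries had 4.94% to 8.15%. Of the 12 RPE markers examined, 7 to 9 per group had at least 10 normalised counts in every library. RPE65, which defines mature RPE, had at most 4.63 in any library. The count does not show levels, which were lower in the factor lines. The 12 markers summed to 31552.8 to 35173.5 in GFP, 23422.7 to 26332.1 in Klf4 and 20159.4 to 20918.9 in Sox2. The sums were 16861.5 to 17318.0 in Oct4 and 13806.2 to 14183.2 in OSK. PMEL had 4094 to 6067 in GFP against 101 and 180 in Sox2, whereas KRT18 had 5100 to 5682 against 4898 and 5131. Of 6 fibroblast markers, 3 or 4 per group passed 10 in every library. No test of these differences is given. PTPRC, the general leukocyte marker, had at most 2.24 in any library, and 1 of 14 leukocyte markers (CD74) passed 10 in every library.

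A gene was called expressed in a group when every library of the group had at least 10 normalised counts, and not detected when every library had at most 3 reads. By this rule 8 of the 82 genes were expressed in all 5 groups: IL18, LIF, CSF1, CXCL16, CCL2, IL33, IL15 and IL17D. A further 11 were expressed in 1 to 4 groups, and 63 in none. GFP cells expressed 11 of the genes, Oct4 cells 14, Sox2 cells 10, Klf4 cells 13 and OSK cells 15. The rule asks for 3 libraries in GFP and 2 in each other group, so these counts are not like for like. IL7, for example, counted in OSK (10.8 and 14.3) but not in GFP (16.9, 11.1 and 7.78). The share of all features that each group expressed by this rule was not computed. Oct4, Sox2, Klf4 and OSK had 60, 61, 62 and 55 not detected, whereas GFP had 30 not detected and 41 between both limits.

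The larger number of faint genes in GFP moved with GFP replicate 1. That library had a read of 68 of the 82 genes, OSK replicate 1 of 51, and the other 9 libraries of 27 to 37. CCL25 had 52.6 normalised counts in GFP replicate 1 and 0 in GFP replicates 2 and 3. CX3CL1 had 46.7, 2.02 and 0.97. Of the 62 genes too low to be tested, 41 were highest in GFP replicate 1, and outside it none exceeded 10.3. Reads of these genes in GFP replicate 1 were therefore not read as expression in GFP cells.

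**Figure D1:**
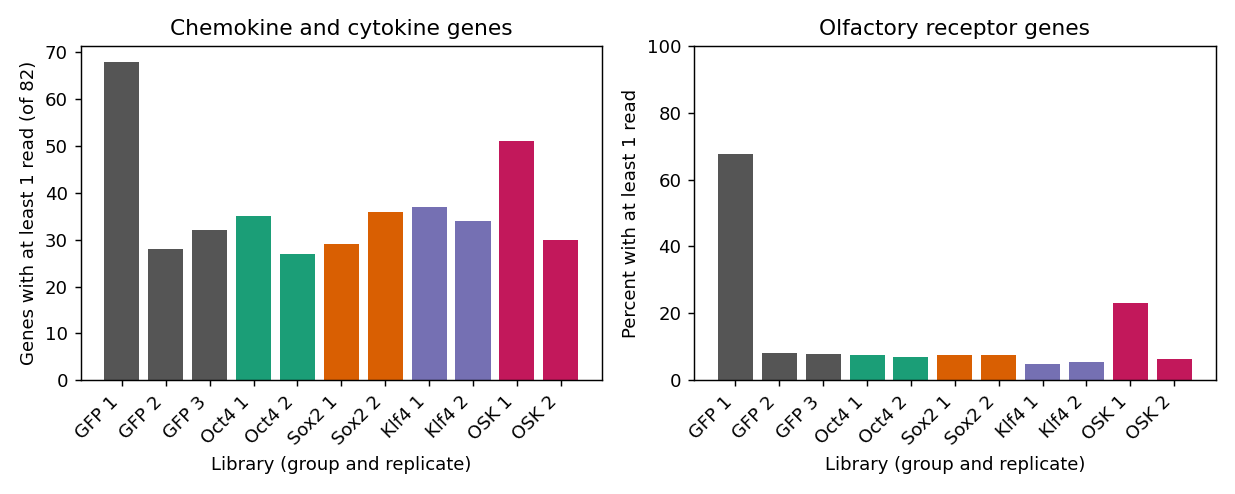
Number of the 82 chemokine and cytokine genes with at least 1 read (left) and percent of 405 olfactory receptor genes with at least 1 read (right), per library and coloured by group. GFP replicate 1 reaches 68 genes and 67.7%, and OSK replicate 1 reaches 51 genes and 23%, above the other 9 libraries on both measures.

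Whole families were silent or nearly so. The interferon-inducible chemokines CXCL9, CXCL10 and CXCL11, which recruit activated T cells, had 0 of 3 genes high enough to be tested. The IL-10 family, which includes IL10, IL19, IL20, IL22, IL24 and IL26, had 0 of 6. Of 24 CC chemokines only CCL2 and CCL20 were expressed in any group, and of 6 neutrophil-attracting ELR CXC chemokines only CXCL8. No read in any library was recorded for 10 genes: CCL3, CCL15, CCL27, CXCL11, CSF2, IL2, IL9, IL17A, IL17F and IL26. In all 26 genes had at most 3 reads in every library, and 51 did when GFP replicate 1 was left out. TNF had 16.9 in GFP replicate 1 and at most 3.25 elsewhere, and CSF3, the granulocyte colony-stimulating factor, had 23.8 there and at most 7.59 elsewhere.

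Per transcript length, IL18 led the set. On an estimated TPM scale (reads divided by exon length and scaled to the same total in each library), GFP cells had 626 for IL18, 175 for LIF, 61.8 for CXCL16, 54.4 for CCL2, 26.2 for CSF1, 16.4 for IL33 and 12.4 for IL12A. IL18 made up 56.8% to 65.3% of the summed TPM of the 82 genes in the GFP libraries and 19.5% to 25.9% in the Sox2 libraries. LIF made up 13.1% to 19.3% in GFP, 34.2% to 34.7% in Klf4 and 36.2% to 38.9% in Sox2, where its share passed that of IL18. The summed TPM was 983 to 1044 in GFP, 702 to 728 in Klf4, 555 to 623 in Oct4, 434 to 465 in Sox2 and 355 to 364 in OSK, with no overlap between groups. In bulk RNA, fewer cells that express a gene and less RNA per cell cannot be told apart.

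**Figure D2:**
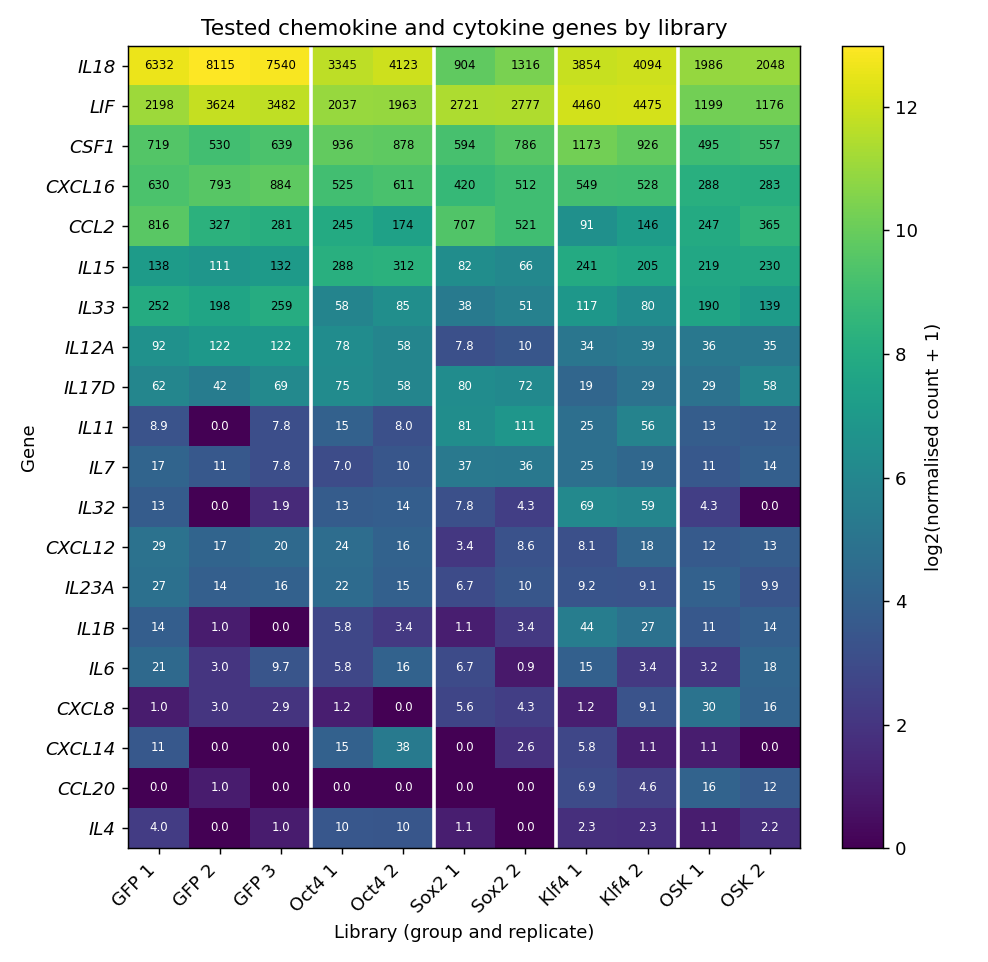
Normalised counts of the tested chemokine and cytokine genes (rows) in the 11 libraries (columns, by group), on a log2(value + 1) colour scale. IL18 and LIF are the brightest rows in most libraries and no other gene is above both in any, and CXCL8, CCL20, IL32, IL1B and IL11 are high in only some groups.

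Differences between groups were tested with limma on log2(value + 1) over 18828 genes, of which 20 belong to the set. Genes were called at a Benjamini-Hochberg adjusted p under 0.05, and changes are log2 differences of this quantity, which understate the change of low genes. All comparisons with GFP share the GFP libraries, so they are not independent of each other. The groups changed broadly. In the Oct4 line 9 of the 20 genes were called (3 higher, 6 lower), where 37.3% of all tested genes were (20.1% higher, 17.2% lower). In the Sox2 line 8 were called (2 higher, 6 lower), where 41.6% of all tested genes were (21.7% higher, 19.9% lower). In the Klf4 line 12 were called (6 higher, 6 lower), where 33.5% of all were (17.6% higher, 16% lower). In OSK 7 were called (3 higher, 4 lower), where 39.7% of all were (19.7% higher, 20% lower). The shares of the set, 45%, 40%, 60% and 35%, thus lay near those of all genes except in the Klf4 line, where the set was above by count and no test of that difference was made. The median change of the 20 genes was -0.06 in Oct4, -0.30 in Sox2, 0.56 in Klf4 and -0.46 in OSK, where that of all tested genes was -0.02, -0.02, -0.02 and -0.01. Without GFP replicate 1 the counts were 12, 11, 14 and 9. The share of all tested genes called in that fit was not computed, so whether the rise is particular to the set was not tested. CXCL8 and CCL20 passed the filter only through the OSK libraries, and CXCL14 and IL4 only through the Oct4 libraries. They had to differ there, so their calls against these lines are a description and no p is given for them. Leaving them out, 8 of 18 genes were called in Oct4 and 5 of 18 in OSK. Here and below, the shares of all tested genes keep genes of this kind, so they are not a matched background for such counts.

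**Figure D3:**
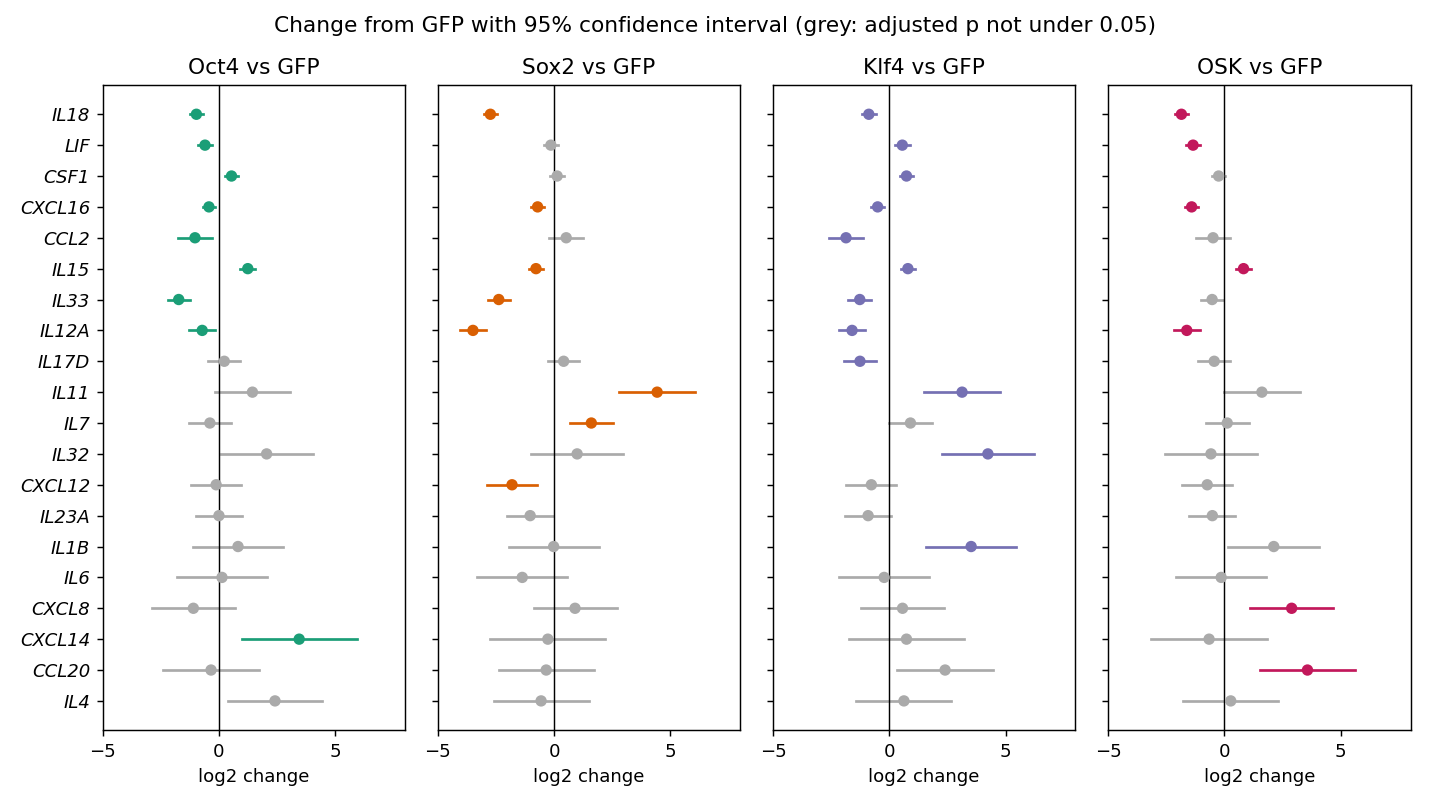
Log2 difference from GFP of each tested gene in the Oct4, Sox2, Klf4 and OSK lines, with bars for the 95% confidence interval and grey where the adjusted p was not under 0.05 (limma). IL18, CXCL16 and IL12A lie below 0 in each line, and IL15 lies below 0 in Sox2 and above 0 in the other lines. CXCL8 and CCL20 are called only in OSK, the line through which alone they passed the filter.

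Within the IL-1 family, IL18 and IL33 fell. IL18 is a cytokine matured by caspase-1 in the inflammasome and induces interferon gamma in lymphocytes. It had 6332, 8115 and 7540 normalised counts in GFP, 3345 and 4123 in Oct4, 3854 and 4094 in Klf4, 1986 and 2048 in OSK, and 904 and 1316 in Sox2. Every library of the factor lines lay below every GFP library, and Sox2 was lowest. The changes from GFP were -0.97 in Oct4 (SE 0.13, limma adjusted p = 2.56e-05), -0.88 in Klf4 (SE 0.13, limma adjusted p = 8.79e-05), -1.85 in OSK (SE 0.13, limma adjusted p = 1.86e-08) and -2.74 in Sox2 (SE 0.13, limma adjusted p = 1.72e-10). IL18 was lower in OSK than in Oct4 (-0.88, SE 0.15, limma adjusted p = 1.42e-04) and Klf4 (-0.98, SE 0.15, limma adjusted p = 1.23e-04), and higher than in Sox2 (0.89, SE 0.15, limma adjusted p = 1.36e-04). The order of the levels was therefore GFP, then Oct4 and Klf4 with overlapping libraries, then OSK, then Sox2.

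IL33, an alarmin of epithelial nuclei that acts through the receptor ST2, had 252, 198 and 259 in GFP and 190 and 139 in OSK. It had 117 and 80 in Klf4, 58.1 and 84.7 in Oct4, and 38.2 and 51.4 in Sox2. The 3 single-factor lines lay wholly below GFP, and OSK lay between them and GFP. The changes from GFP were -2.38 in Sox2 (SE 0.23, limma adjusted p = 4.14e-07), -1.73 in Oct4 (SE 0.23, limma adjusted p = 1.78e-05) and -1.27 in Klf4 (SE 0.23, limma adjusted p = 4.16e-04). In OSK it was -0.53 (95% confidence interval -1.02 to -0.05, limma adjusted p = 0.0778) and did not pass. IL33 was higher in OSK than in Oct4 (1.20, SE 0.25, limma adjusted p = 0.00107) and Sox2 (1.85, SE 0.25, limma adjusted p = 1.87e-05). The third expressed member of the family, IL1B, the prototype inflammasome cytokine, had 44 and 27.4 in Klf4 and 10.8 and 14.3 in OSK, against 13.9, 1.01 and 0 in GFP, 5.81 and 3.43 in Oct4, and 1.12 and 3.42 in Sox2. Both Klf4 libraries exceeded all others. The change in Klf4 was 3.52 (SE 0.91, limma adjusted p = 0.00701), and 3.19 without Klf4 replicate 1 (limma adjusted p = 0.0838). In OSK it was 2.12 (SE 0.91, limma adjusted p = 0.0794), and 3.25 without GFP replicate 1 (limma adjusted p = 5.44e-04). IL1A, IL36A, IL36B and IL37 were not expressed in any group.

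LIF, which signals through LIFR and gp130 and is known to sustain photoreceptors under stress, moved in opposite directions among the lines. It had 2198, 3624 and 3482 in GFP and 4460 and 4475 in Klf4. It had 2721 and 2777 in Sox2, 2037 and 1963 in Oct4, and 1199 and 1176 in OSK. LIF rose in Klf4 (0.56, SE 0.14, limma adjusted p = 0.00687) and fell in Oct4 (-0.60, SE 0.14, limma adjusted p = 0.00394) and OSK (-1.35, SE 0.14, limma adjusted p = 1.77e-06). The rise in Klf4 was not called when only the 2 compared groups were fitted (limma adjusted p = 0.0552). In Sox2 the change was -0.14 (95% confidence interval -0.45 to 0.17, limma adjusted p = 0.483), but -0.37 without GFP replicate 1 (limma adjusted p = 5.35e-05). The OSK line had less LIF than each single-factor line, by -0.75 from Oct4 (limma adjusted p = 0.00121), -1.21 from Sox2 (limma adjusted p = 1.41e-05) and -1.91 from Klf4 (SE 0.16, limma adjusted p = 2.96e-07).

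IL11, another cytokine that signals through gp130, was low in GFP and highest in Sox2. It had 80.8 and 111 in Sox2 and 25.5 and 56 in Klf4, against 8.94, 0 and 7.78 in GFP, 15.1 and 8.01 in Oct4, and 13 and 12.1 in OSK. Every Sox2 library exceeded every library of the other groups. The rise was 4.43 in Sox2 (SE 0.76, limma adjusted p = 1.88e-04) and 3.13 in Klf4 (SE 0.76, limma adjusted p = 0.00457). Klf4 without replicate 2 gave 2.58 (limma adjusted p = 0.0731). OSK, which contains both factors, was lower than Sox2 by -2.82 (SE 0.83, limma adjusted p = 0.0129), a call lost when either OSK library or Sox2 replicate 2 was left out (limma adjusted p = 0.0541 to 0.0852). OSK differed from Klf4 by -1.52 (95% confidence interval -3.29 to 0.25, limma adjusted p = 0.233). IL6, the founding cytokine of the family, was expressed in no group. It had 20.9, 3.03 and 9.72 in GFP and between 0.86 and 17.6 elsewhere, with adjusted p-values of at least 0.255 against GFP (limma). Exons of IL6 overlap STEAP1B on the opposite strand, which had 44.1 and 48.1 in Oct4, 8.09 to 18.9 in GFP and at most 8.80 in the other lines.

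The chemokine CXCL16, a membrane-bound ligand of CXCR6 that also binds oxidised lipoprotein, had 630, 793 and 884 in GFP and 288 and 283 in OSK. It had 525 and 611 in Oct4, 549 and 528 in Klf4, and 420 and 512 in Sox2. OSK lay below every other library. The changes from GFP were -1.41 in OSK (SE 0.13, limma adjusted p = 2.53e-07), -0.71 in Sox2 (SE 0.13, limma adjusted p = 2.66e-04), -0.50 in Klf4 (SE 0.13, limma adjusted p = 0.00643) and -0.43 in Oct4 (SE 0.13, limma adjusted p = 0.0152). The Oct4 call was lost without Oct4 replicate 1 (-0.32, limma adjusted p = 0.171) or GFP replicate 3 (-0.32, limma adjusted p = 0.0728), and the Klf4 call without Klf4 replicate 2 (-0.47, limma adjusted p = 0.0533). OSK was lower than each single-factor line, by -0.99 from Oct4 (limma adjusted p = 3.09e-05), -0.70 from Sox2 (limma adjusted p = 7.90e-04) and -0.91 from Klf4 (limma adjusted p = 1.57e-04). CXCL16 overlaps exons of MED11 on the opposite strand. MED11 had 149 and 153 in OSK and 108 to 141 in GFP.

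CCL2, the main monocyte chemoattractant acting through CCR2, had 816, 327 and 281 in GFP, 707 and 521 in Sox2, 247 and 365 in OSK, 245 and 174 in Oct4, and 91.4 and 146 in Klf4. Klf4 lay below all the other libraries. The fall in Klf4 was -1.86 (SE 0.34, limma adjusted p = 5.30e-04) and CCL2 there was also lower than in Sox2, which exceeded Klf4 by 2.38 (SE 0.37, limma adjusted p = 8.36e-05). In Oct4 the change was -1.03 (SE 0.34, limma adjusted p = 0.0273). It was not called without GFP replicate 1 (-0.55, limma adjusted p = 0.0584) or Oct4 replicate 2 (-0.78, limma adjusted p = 0.227), by DESeq2 (adjusted p = 0.0719), with only the compared groups (limma adjusted p = 0.0699) or with no filter (limma adjusted p = 0.0946). In Sox2 it was 0.52 (SE 0.34, limma adjusted p = 0.245), and 1.00 without GFP replicate 1 (limma adjusted p = 0.00129). The 14 leukocyte markers summed to 48.5 to 267 in GFP, with the highest sum in GFP replicate 1, 112 to 127 in Oct4, 70.2 to 84.1 in Sox2, 31.2 to 38.8 in Klf4 and 35.2 to 68.3 in OSK. Their part in the CCL2 values was not tested.

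By the limit of 10 in every library, CXCL8 and CCL20 were expressed in OSK only. CXCL8 (interleukin 8) attracts neutrophils through CXCR1 and CXCR2, and CCL20 attracts cells that carry CCR6. CXCL8 had 30.4 and 16.5 in OSK, against 0.99, 3.03 and 2.92 in GFP, 1.16 and 0 in Oct4, 5.61 and 4.28 in Sox2, and 1.16 and 9.14 in Klf4. CCL20 had 16.3 and 12.1 in OSK and 6.94 and 4.57 in Klf4, against at most 1.01 in the other 7 libraries. In both genes each OSK library exceeded each library of the other groups. All GFP libraries had at most 3 reads of both genes. Taken against 3 reads per library, the OSK mean was 7.87-fold for CXCL8 and 4.76-fold for CCL20. These folds leave out the spread between libraries, so they are not lower bounds. Against Oct4, taken in the same way, the OSK mean was 6.77-fold for CXCL8 and 4.10-fold for CCL20. CXCL8 in OSK differed by 2.32 from Klf4 (SE 0.92) and by 1.99 from Sox2 (SE 0.92), given as a description only. OSK replicate 1, one of the libraries with reads on otherwise silent genes, was the higher of its pair. Both genes passed the filter only through the OSK libraries, so OSK replicate 2 had to lie above the other groups. The part of such reads in the values of OSK replicate 1 was not tested. With either OSK library left out, both genes fell below the filter and were not tested.

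**Figure D4:**
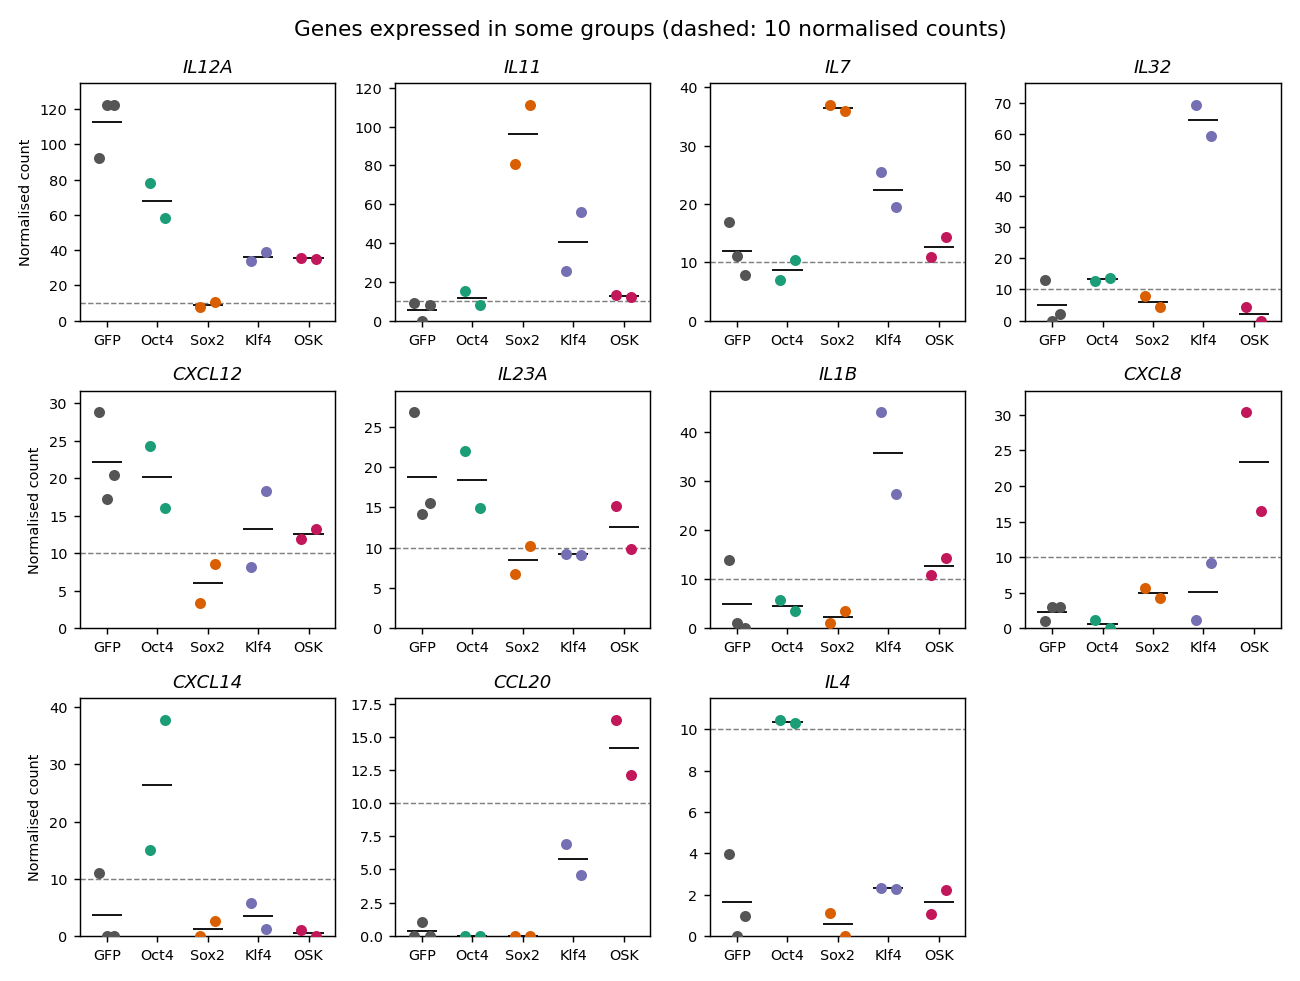
Normalised counts per library of the 11 genes expressed in 1 to 4 groups, 1 panel per gene on a linear axis from 0, with a point per library coloured by group, a line at the group mean and a dashed line at 10. CXCL8 and CCL20 are highest in both OSK libraries, IL32 and IL1B in both Klf4 libraries, and IL11 and IL7 in both Sox2 libraries.

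IL32, a cytokine of epithelial and lymphoid cells that induces TNF, was highest in Klf4. It had 69.4 and 59.4 there, against 12.9, 0 and 1.94 in GFP, 12.8 and 13.7 in Oct4, 7.85 and 4.28 in Sox2, and 4.34 and 0 in OSK. Its rise in Klf4 was 4.24 (SE 0.93, limma adjusted p = 0.00214). Without GFP replicate 1 the remaining GFP libraries had at most 3 reads, and the Klf4 mean was 21.7-fold the value of 3 reads per library. OSK was lower than Klf4 by -4.82 (SE 1.02, limma adjusted p = 0.0026), and by -3.61 without OSK replicate 2 (limma adjusted p = 0.0509). In Oct4 the change from GFP was 2.05 (95% confidence interval 0.07 to 4.03, limma adjusted p = 0.0989), and 3.05 without GFP replicate 1 (limma adjusted p = 0.00322).

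CXCL14, an epithelial chemokine, and IL4, the type 2 cytokine, were expressed in Oct4 only. CXCL14 had 15.1 and 37.8 in Oct4, against 10.9, 0 and 0 in GFP and at most 5.78 in the other lines. Its change from GFP was 3.45 (SE 1.16), and its call was lost in 9 alternatives, including edgeR, DESeq2 and leaving out Oct4 replicate 2 (2.82). IL4 had 10.5 and 10.3 in Oct4, against 3.97, 0 and 0.97 in GFP and at most 2.31 in the other lines. Its change was 2.41 (SE 0.96), and 3.02 without GFP replicate 1. Both genes passed the filter only through Oct4, so these changes and the CXCL14 call are a description of the libraries. Both IL4 values in Oct4 were near the limit of 10 that defines expression.

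The promoters of the 5 genes that were expressed in some groups and rose most in OSK, Klf4 or Sox2 are shown, since these genes moved in different lines. They come from RefSeq (GRCh38.p14) and run from 250 bases before to 50 bases after the start of the gene, 5′ to 3′ on the strand of the gene. Of the 19 expressed genes, 12 matched an entry. Capitals mark matches on either strand to GGNNTTTCC (an NF-kB pattern), TGANTCA (AP-1), GGGNGTGG (KLF4), CATTGTT (SOX) or ATGCAAAT (the octamer bound by Oct4). CXCL8 lies at chr4:73740319-73740618 (plus strand), CCL20 at chr2:227813592-227813891 (plus), IL32 at chr16:3065153-3065452 (plus, the first of 2 listed starts), IL1B at chr2:112836730-112837029 (minus) and IL11 at chr19:55370414-55370713 (minus).
CXCL8: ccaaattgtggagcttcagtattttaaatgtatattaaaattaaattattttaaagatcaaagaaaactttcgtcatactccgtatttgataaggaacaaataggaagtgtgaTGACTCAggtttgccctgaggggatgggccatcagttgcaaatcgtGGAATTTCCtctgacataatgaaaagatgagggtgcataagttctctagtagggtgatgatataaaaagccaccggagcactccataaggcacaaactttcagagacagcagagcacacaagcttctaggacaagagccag
CCL20: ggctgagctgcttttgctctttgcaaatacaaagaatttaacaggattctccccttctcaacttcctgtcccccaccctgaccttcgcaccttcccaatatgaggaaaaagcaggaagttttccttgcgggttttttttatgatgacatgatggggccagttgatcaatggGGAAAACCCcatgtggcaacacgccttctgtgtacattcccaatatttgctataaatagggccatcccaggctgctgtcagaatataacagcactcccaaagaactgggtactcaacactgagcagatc
IL32: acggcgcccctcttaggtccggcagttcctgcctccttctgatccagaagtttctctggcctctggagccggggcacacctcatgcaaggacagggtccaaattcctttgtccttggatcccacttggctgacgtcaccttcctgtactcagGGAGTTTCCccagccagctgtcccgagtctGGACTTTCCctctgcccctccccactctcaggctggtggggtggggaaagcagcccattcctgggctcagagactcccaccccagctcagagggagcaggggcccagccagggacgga
IL1B: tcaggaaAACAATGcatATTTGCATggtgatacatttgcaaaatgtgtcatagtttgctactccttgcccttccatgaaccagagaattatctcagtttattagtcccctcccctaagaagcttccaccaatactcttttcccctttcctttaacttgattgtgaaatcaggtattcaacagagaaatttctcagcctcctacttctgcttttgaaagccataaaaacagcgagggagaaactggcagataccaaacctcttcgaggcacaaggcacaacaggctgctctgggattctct
IL11: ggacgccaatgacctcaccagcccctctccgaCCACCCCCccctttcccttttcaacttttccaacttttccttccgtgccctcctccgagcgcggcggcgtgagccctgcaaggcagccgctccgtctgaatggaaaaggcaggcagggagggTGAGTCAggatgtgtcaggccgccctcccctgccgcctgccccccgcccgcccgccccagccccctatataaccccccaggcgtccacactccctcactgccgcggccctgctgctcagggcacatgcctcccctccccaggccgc

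The CXCL8 promoter held an AP-1 match 137 bases and an NF-kB match 91 bases before the start. CCL20 held 1 NF-kB match, 79 bases before the start, and IL32 held 2, at 98 and 68 bases. The window at the other listed start of IL32, which is not shown, held 0 matches to any of the patterns. IL1B held a SOX match at 243 bases and an octamer match at 233 bases. IL11 held a KLF4 match at 218 bases and an AP-1 match at 96 bases. Of the matched genes not shown, CXCL14 and IL23A each held an AP-1 match. IL17D held an NF-kB match at a listed start and AP-1 matches at another. IL4, IL12A, IL33 and CXCL12 held none, so matches were not particular to the genes shown. Among all 35116 RefSeq promoters of this length, 6.26% held the NF-kB pattern, 7.71% AP-1, 17.2% KLF4, 3.33% SOX and 1.77% the octamer. The NF-kB pattern first searched had another leading G (1.91% of promoters) and was shortened after CXCL8 showed no match to it. A match describes letters in this window and is not a binding site.

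IL15 and IL7 support lymphocytes through receptors with the common gamma chain. IL15 had 138, 111 and 132 in GFP, 288 and 312 in Oct4, 241 and 205 in Klf4, 219 and 229.9 in OSK, and 81.9 and 65.9 in Sox2. It was the only one of the 8 genes expressed in all groups that rose in Oct4, Klf4 and OSK and fell in Sox2, with no overlap with GFP in any line. The changes were 1.24 in Oct4 (SE 0.15, limma adjusted p = 5.95e-06), 0.80 in Klf4 (SE 0.15, limma adjusted p = 5.05e-04), 0.82 in OSK (SE 0.15, limma adjusted p = 3.08e-04) and -0.78 in Sox2 (SE 0.15, limma adjusted p = 4.61e-04). OSK exceeded Sox2 by 1.60 (SE 0.16, limma adjusted p = 8.36e-07). IL7 had 37 and 36 in Sox2 and 25.5 and 19.4 in Klf4, against 16.9, 11.1 and 7.78 in GFP, 6.97 and 10.3 in Oct4, and 10.8 and 14.3 in OSK. It rose in Sox2 by 1.60 (SE 0.43, limma adjusted p = 0.00715), and without Sox2 replicate 1 by 1.58 (limma adjusted p = 0.057). ZC2HC1A, whose exons overlap those of IL7 on the opposite strand, was also highest in Sox2, 789.9 and 838 against 346 to 460 in GFP. LIF, CXCL14 and IL17D also have exon overlaps on the opposite strand, with LIF-AS1 (at most 17.4 in any library), SLC25A48 (18.9 in GFP replicate 1 and at most 1.94 elsewhere) and AL161772.1. The use of strand in counting is not given in the sources used here, so reads of such pairs cannot be told apart, and the part of ZC2HC1A reads in the IL7 value was not tested.

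IL12A, a subunit of the heterodimer interleukin 12, fell in every line. It had 92.4, 122 and 122 in GFP, 77.8 and 58.4 in Oct4, 33.5 and 38.9 in Klf4, 35.8 and 35.2 in OSK, and 7.85 and 10.3 in Sox2. No library of the factor lines reached the lowest GFP library. The changes were -3.49 in Sox2 (SE 0.26, limma adjusted p = 2.53e-08), -1.62 in OSK (SE 0.26, limma adjusted p = 1.11e-04), -1.60 in Klf4 (SE 0.26, limma adjusted p = 1.77e-04) and -0.72 in Oct4 (SE 0.26, limma adjusted p = 0.0418). The Oct4 call was lost in 9 alternatives, including DESeq2 (adjusted p = 0.0765) and leaving out Oct4 replicate 2 (-0.51, limma adjusted p = 0.284). IL12B, the other subunit of interleukin 12, was expressed in no group. IL12A exons overlap IL12A-AS1 on the opposite strand, which had at most 21.9 in any library. IL23A, a subunit of the related heterodimer interleukin 23, had 26.8, 14.2 and 15.6 in GFP and between 6.73 and 22.1 elsewhere, and no change from GFP passed (limma adjusted p of 0.0898 or more).

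CSF1, the growth factor of macrophages and microglia, had 719, 530.1 and 639 in GFP, 936 and 878 in Oct4, and 1173 and 926 in Klf4. It had 594 and 786 in Sox2 and 495 and 557 in OSK. It rose in Klf4 by 0.74 (SE 0.14, limma adjusted p = 5.68e-04) and in Oct4 by 0.54 (SE 0.14, limma adjusted p = 0.00569). Without Oct4 replicate 1 the latter was 0.49 (limma adjusted p = 0.0599). In OSK, which contains both factors, the change was -0.25 (95% confidence interval -0.54 to 0.04, limma adjusted p = 0.169), and OSK was lower than Oct4 by -0.79 (SE 0.15, limma adjusted p = 5.20e-04) and than Klf4 by -0.99 (SE 0.15, limma adjusted p = 1.51e-04). CSF2, CSF3 and TNF were expressed in no group.

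**Figure D5:**
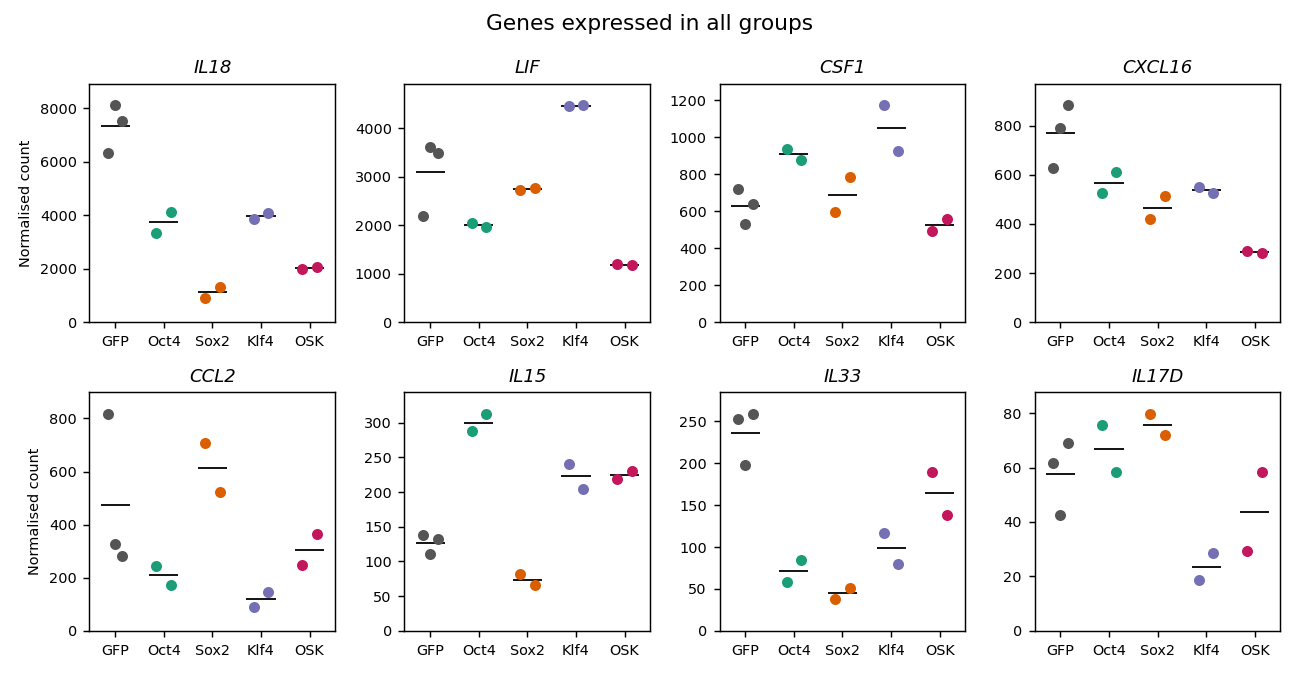
Normalised counts per library of the 8 genes expressed in every group, 1 panel per gene on a linear axis from 0, with a point per library coloured by group and a line at the group mean. IL18 falls from 6332 or more in GFP to 1316 or less in Sox2, while LIF is highest in Klf4 and lowest in OSK.

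Of the remaining expressed genes, IL17D, an IL-17 family cytokine, had 61.6, 42.5 and 69 in GFP, 18.5 and 28.6 in Klf4, 29.3 and 58.3 in OSK, 75.5 and 58.4 in Oct4, and 79.7 and 71.9 in Sox2. Klf4 was lower than GFP by -1.26 (SE 0.32, limma adjusted p = 0.00581), and -0.96 without Klf4 replicate 1 (limma adjusted p = 0.0894). CXCL12, the ligand of CXCR4 and ACKR3, had 28.8, 17.2 and 20.4 in GFP, 24.4 and 16 in Oct4, 3.37 and 8.56 in Sox2, 8.10 and 18.3 in Klf4, and 11.9 and 13.2 in OSK. It fell in Sox2 by -1.81 (SE 0.50, limma adjusted p = 0.00834), and without Sox2 replicate 1 by -1.24 (limma adjusted p = 0.131). The other lines did not pass.

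The combined line was next compared with its single factors. In OSK against Oct4, 9 of 20 genes were called (3 higher, 6 lower), where 40.3% of all tested genes were (18.4% higher, 21.9% lower). In OSK against Sox2, 10 were called (5 higher, 5 lower), where 40.5% of all genes were (20% higher, 20.5% lower). In OSK against Klf4, 7 were called (2 higher, 5 lower), where 21.5% of all genes were (9.56% higher, 11.9% lower). Leaving out the genes that passed the filter only through a compared line, the counts were 6 of 16, 9 of 18 and 7 of 18. LIF and CXCL16 were lower in OSK than in each of the 3 single-factor lines. CCL20, which passed the filter only through OSK, had higher values there than in each single-factor line. Its difference from Klf4 was 1.18 (SE 1.06), given as a description only. CCL2 was higher in OSK than in Klf4 by 1.37 (SE 0.37, limma adjusted p = 0.0151), a call that DESeq2 did not make (adjusted p = 0.0801) and that was lost without Klf4 replicate 1 (1.03, limma adjusted p = 0.169) or OSK replicate 2 (1.09, limma adjusted p = 0.159).

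Among the single-factor lines, 11 of 20 genes differed in Oct4 against Sox2 (7 higher, 4 lower), where 33.4% of all tested genes did (18% higher, 15.4% lower). In Oct4 against Klf4, 7 differed (3 higher, 4 lower), where 41.7% of all genes did (21.8% higher, 20% lower). In Sox2 against Klf4, 11 differed (2 higher, 9 lower), where 40.8% of all genes did (20.1% higher, 20.7% lower). In Oct4 against Sox2, IL12A (2.78, SE 0.29, limma adjusted p = 1.42e-06), IL15 (2.01, SE 0.16, limma adjusted p = 8.21e-08) and IL18 (1.77, SE 0.15, limma adjusted p = 1.13e-07) were higher in Oct4, as were CXCL14 and IL4, without which 9 of 18 genes were called. IL11 (-2.99, SE 0.83, limma adjusted p = 0.0108) and IL7 (-1.98, SE 0.47, limma adjusted p = 0.00391) were lower. The IL11 call was lost without Oct4 replicate 2 (-2.57, limma adjusted p = 0.0967) or Sox2 replicate 2 (-2.76, limma adjusted p = 0.0783). Between Sox2 and Klf4, IL15 (-1.58, SE 0.16, limma adjusted p = 8e-07) and IL18 (-1.86, SE 0.15, limma adjusted p = 3.68e-08) were lower in Sox2, and IL17D (1.67, SE 0.35, limma adjusted p = 0.00101) was higher. Between Oct4 and Klf4 the differences of LIF (-1.16, SE 0.16, limma adjusted p = 2.02e-05) and IL17D (1.49, SE 0.35, limma adjusted p = 0.00251) were called under every alternative run. The count between Oct4 and Klf4 was 3 without Oct4 replicate 2, Klf4 replicate 1 or Klf4 replicate 2, 2 without Oct4 replicate 1 and 10 without GFP replicate 1.

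The receptors were examined as a list of 64 genes, of which 29 were tested. This list and those that follow were chosen with earlier results of these data known. Their called shares beside those of all tested genes are therefore a description only. From GFP, 12 receptors were higher and 3 lower in Oct4, 7 and 4 in Sox2, 10 and 4 in Klf4, and 9 and 6 in OSK. The called shares were 51.7%, 37.9%, 48.3% and 51.7%, where those of all tested genes were 37.3%, 41.6%, 33.5% and 39.7%. The OSK share includes 1 receptor that passed the filter only through OSK. The median change was 0.19, -0.05, 0.39 and 0.27, where that of all tested genes was -0.02, -0.02, -0.02 and -0.01. IL7R, the receptor of IL7, had 3192 and 2754 in Sox2, against 15.9, 0 and 0.97 in GFP (9.85, SE 0.76, limma adjusted p = 3.77e-08). IL6R, the receptor subunit of IL6, had 1.12 and 4.28 in Sox2, against 106, 72.8 and 89.4 in GFP (-4.74, SE 0.34, limma adjusted p = 1.77e-08). IL18R1, a chain of the IL18 receptor, had 17.3 and 17.6 in OSK, against 6.95, 0 and 0 in GFP (a difference of 3.21, SE 1.16). It passed the filter only through OSK, so no p is given. ACKR3, the decoy receptor of CXCL12, had 3505 and 3967 in Klf4 and 3664 and 3732 in OSK, against 369 to 479 in GFP. Its change was 3.12 in Klf4 (SE 0.14, limma adjusted p = 1.42e-10) and 3.11 in OSK (SE 0.14, limma adjusted p = 1.04e-10). Without GFP replicate 1, 28 receptors were tested, and 14 were higher and 4 lower in Oct4, 9 and 4 in Sox2, 14 and 3 in Klf4, and 13 and 5 in OSK. For that fit the share of all tested genes was not computed.

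Of 8 antagonists and decoys, 3 were tested. IL18BP, which binds and neutralises IL18, had 458 and 448 in Oct4, 169 and 185 in Klf4 and 241 to 292 in GFP. It rose in Oct4 (0.75, SE 0.12, limma adjusted p = 1.81e-04) and fell in Klf4 (-0.60, SE 0.12, limma adjusted p = 0.00132). SIGIRR, an inhibitory receptor of the IL-1 family, rose in Oct4 (0.98, SE 0.32, limma adjusted p = 0.0251), but not without GFP replicate 1 (0.82, limma adjusted p = 0.0634). TNFRSF11B, the decoy receptor osteoprotegerin, fell in Sox2 (-1.25), Klf4 (-1.70) and OSK (-2.09, SE 0.23, limma adjusted p = 2.16e-06).

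All 31 genes of NF-kB and cytokine signalling were tested. From GFP, 12 were higher and 4 lower in Oct4, 14 and 7 in Sox2, 8 and 7 in Klf4, and 15 and 5 in OSK, with medians of 0.24, 0.24, 0.13 and 0.28 (all tested genes -0.02, -0.02, -0.02 and -0.01). The called shares were 51.6%, 67.7%, 48.4% and 64.5%, where those of all tested genes were 37.3%, 41.6%, 33.5% and 39.7%. IRF1, an interferon-induced transcription factor, had 1719 and 1648 in Oct4, against 148 to 183 in GFP (3.39, SE 0.11, limma adjusted p = 3.07e-12). It rose less in Klf4 (1.46, SE 0.11, limma adjusted p = 5.38e-08) and OSK (1.26, SE 0.11, limma adjusted p = 1.71e-07). CEBPD rose in each line, most in Oct4 (2.17, SE 0.16, limma adjusted p = 2.12e-08). JUN, a subunit of AP-1, fell in each line, by -0.89 in Sox2 up to -2.13 in OSK (SE 0.11, limma adjusted p = 5.63e-10). FOSL1, another subunit, fell in Oct4 (-1.48), Klf4 (-2.28) and OSK (-1.77, SE 0.19, limma adjusted p = 2.16e-06).

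Of 20 feedback inhibitors, 19 were tested, with 1 higher and 7 lower in Oct4, 6 and 8 in Sox2, 4 and 7 in Klf4, and 1 and 8 in OSK. These were 42.1%, 73.7%, 57.9% and 47.4% of the list, where 37.3%, 41.6%, 33.5% and 39.7% of all tested genes were called. NFKBIA, which retains NF-kB in the cytoplasm and is itself an NF-kB target, had 2757 and 3369 in OSK, 1847 and 2301 in Klf4, 1442 to 1753 in GFP, 441 and 401 in Oct4, and 436 and 399 in Sox2. It rose in OSK (0.95, SE 0.11, limma adjusted p = 4.03e-06) and Klf4 (0.39, SE 0.11, limma adjusted p = 0.0125). It fell in Oct4 (-1.90) and Sox2 (-1.91, SE 0.11, limma adjusted p = 1.22e-09). SOCS3, which is induced by gp130 cytokines and restrains them, fell in each line, most in Sox2 (-2.65, SE 0.14, limma adjusted p = 4.71e-10). SOCS1 fell in Klf4 (-1.89) and OSK (-2.03, SE 0.41, limma adjusted p = 9.21e-04). DUSP1, a phosphatase that inactivates stress-activated kinases, fell in Sox2 (-1.91, SE 0.07, limma adjusted p = 5.42e-12), Oct4 (-0.99) and OSK (-0.25, limma adjusted p = 0.00683) and rose in Klf4 (0.54).

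Among 20 inflammatory genes known to be raised by NF-kB, 11 were tested, with 3 higher and 2 lower in Oct4, 3 and 4 in Sox2, 5 and 4 in Klf4, and 3 and 2 in OSK. The called shares of 45.5%, 63.6%, 81.8% and 45.5% stand beside 37.3%, 41.6%, 33.5% and 39.7% of all tested genes. The Sox2 and Klf4 shares each include 1 gene that passed the filter only through that line. TNFAIP2 had 431 and 474 in Klf4 and 74.8 and 83.6 in OSK, against 28.8, 0 and 2.92 in GFP. It rose in both (Klf4 6.53, SE 0.93, limma adjusted p = 4.50e-05). LCN2, an iron-binding antibacterial protein, had 64.8 and 37.7 in Klf4, against 17.9, 1.01 and 0.97 in GFP (a difference of 3.58, SE 0.99). It passed the filter only through Klf4. TNFAIP6, which passed only through Sox2, had 14.6 and 39.4 there and at most 2.98 elsewhere. Of 25 cytokines outside the symbol rule, 8 were tested. TNFSF10 (TRAIL), which triggers apoptosis, had 47.1 and 51.4 in Sox2, 6.95 in GFP replicate 1 and 0 in every other library. CTF1, a gp130 cytokine, fell in OSK (-2.06, SE 0.21, limma adjusted p = 8.22e-07) and Klf4 (-1.44), and CLCF1, another, in Oct4 (-0.47), Sox2 (-0.71) and OSK (-0.55). KITLG, the ligand of KIT, rose in OSK (1.78, SE 0.28, limma adjusted p = 9.42e-05), Klf4 (1.44) and Oct4 (1.01).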

How the data were processed

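The deposited table lists 60605 features for 11 libraries. As its numbers show, the deposited signal is a normalised count, the authors' count of each gene over 1 factor per library, kept to 2 decimals. All values were whole multiples of 1 read (100% in each library, tolerance 0.0061), and whole reads were recovered by division. In GFP replicates 1 and 2 a read is worth nearly 1, so recovery there is less sure: it rests on 23442 and 13624 low values off whole numbers, and the read limits in GFP, edgeR and DESeq2 rest on it. Per the submitters' processing notes, STAR 2.7.1a and featureCounts 1.6.2 were used, with human (GRCh38) and mouse (GRCm38) builds named without a role. Per the labels' protocols, polyadenylated RNA from TRIzol extracts went into NEBNext Ultra II RNA libraries. The normalization, annotation and strand setting are not given in the sources used here.

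The members and gene lists were chosen with earlier results of these data known. The design called for a count test if the files held raw counts. They do not, so the test was limma 3.58.1 under R 4.3.3 (lmFit, then eBayes with a trend) applied to log2(value + 1). All 11 libraries entered 1 fit with group means, and all groups shared its spread (residual degrees of freedom 6, prior 9.21). The 18828 genes that reached 10 in 2 or more libraries were tested, with Benjamini-Hochberg adjustment and a threshold of 0.05. Where every library of a group had 3 reads or fewer, the fold was taken against 3 reads per library. It covers only the counting error of the low group and not the spread between libraries, so it is not a lower bound. The procedure was tested on simulated data.

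Genes were named by a rule: members expressed in a group and called in a comparison get every library's value, and at most 4 genes per pathway list are named, those with the largest called change from GFP. A gene that this rule names is not reported here. Estimated TPM used exon lengths of GENCODE release 29 (GRCh38), matched to 54610 features (90.1%). All 82 genes had a GENCODE record. Alternatives were edgeR 4.0.16 (TMM and median-of-ratios factors) and DESeq2 1.42.0 on recovered reads, a pseudocount of 0.5, no filter, only the compared groups, the replicate number as a block, and each library left out. Leaving out GFP replicate 1 and OSK replicate 1 together, and the counts of pathway genes without GFP replicate 1, were chosen after seeing the data. Replicates differed by more than sampling noise (mean chi-square per feature 3.11 to 12) and were kept as separate samples.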

Additional observations from a re-analysis of the deposited data

How the results depend on the processing

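Over the 10 comparisons 91 gene and comparison pairs were called, and 55 of them stayed called in every alternative that tested them. CXCL8 and CCL20 were not tested when either OSK library was left out. Across all alternatives 177 values fell below the threshold, 88 uncalled values passed it, and 0 called values changed sign. Without a filter the counts of called genes were 5 (Oct4 against GFP), 6 (Oct4 against Sox2) and 3 (Oct4 against Klf4), over 72 genes of the set tested, and the median of all genes against GFP moved to -0.33 in Oct4, Sox2 and Klf4 and -0.24 in OSK. DESeq2 called 7 between Oct4 and Sox2. Leaving out 1 library gave, against GFP, 5 to 12 called genes in Oct4, 6 to 11 in Sox2, 10 to 14 in Klf4 and 5 to 9 in OSK. For OSK it gave 6 to 12 against Oct4, 6 to 13 against Sox2 and 5 to 8 against Klf4. Between single factors it gave 4 to 14 for Oct4 against Sox2 (4 without Oct4 replicate 2, 5 without Sox2 replicate 1, 7 without Oct4 replicate 1), 2 to 10 for Oct4 against Klf4 (4 without either OSK library) and 7 to 11 for Sox2 against Klf4 (7 without Klf4 replicate 1). The count was 5 for Oct4 against GFP without Oct4 replicate 1, and 6 for OSK against Sox2 without OSK replicate 1. Deviations of same-numbered replicates correlated at -0.0693 to 0.0418 between groups, except 0.412 between GFP and OSK. Replicate numbers thus did not pair the samples across groups, but those of GFP and OSK deviated in part together. With the replicate block the counts were 6, 8, 12 and 7 for Oct4, Sox2, Klf4 and OSK against GFP, 10, 10 and 6 for OSK against Oct4, Sox2 and Klf4, 10 for Oct4 against Sox2, 5 for Oct4 against Klf4 and 10 for Sox2 against Klf4. The cause of these changes was not tested. The share of all tested genes called was computed for the limma test described above and for none of the alternatives. The counts of the alternatives therefore have no such share beside them. Low read numbers limit what can be shown for IL4, CCL20, CXCL14 and IL6.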
